A study of Mus musculus with 6 samples.

Results

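The Hippo-YAP genes described here are 10 of the 17975 genes in the deposited table, taken by name: the coactivator genes Yap1 and Wwtr1 (which encodes TAZ), the DNA-binding partner Tead1, the inhibitory kinase Lats2, the scaffolds Amotl2 and Ajuba, and the target genes Ccn2 (also called Ctgf), Ccn1 (also called Cyr61), Ankrd1 and Axl. RNA was sequenced from pieces of whole liver of 3 Hom mice and 3 WT mice, 1 liver per mouse. Hom mice carry 2 floxed Nek7 alleles (NEK7 fl/fl) and the Alb-Cre transgene, in which the albumin promoter drives Cre, so that Nek7 is deleted in cells that make albumin, mainly hepatocytes, while other liver cells keep it. The study's WT mice carry either the floxed alleles without Cre or Alb-Cre without floxed alleles, and the labels do not say which applied to each of the 3, nor the age or sex of any of the 6 mice. The mice are on a C57BL/6 background.

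Hippo signalling is a kinase cascade in which MST kinases activate LATS kinases, and LATS kinases phosphorylate YAP and TAZ so that they stay in the cytoplasm or are degraded. When the cascade is quiet, as in cells that are stretched, dividing or injured, YAP and TAZ enter the nucleus, bind TEAD transcription factors and raise the transcription of genes such as Ccn1, Ccn2 and Ankrd1. In the liver the pathway is known for limiting organ size, and YAP is high in bile duct cells and low in resting hepatocytes. RNA levels show neither the phosphorylation nor the location of these proteins.

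The estimated counts summed to between 19349418 and 19730236 per liver, so depth was nearly equal. Nek7 was lower in each Hom liver, with counts of 310, 439 and 387 against 1127, 1077 and 1036 in WT livers (replicates 1, 2 and 3). The Y-linked gene Ddx3y had a count of 0 in Hom replicate 1 and of at least 630 in the other 5 livers, so results are also given without that liver. The composition of the libraries differed: TMM scaling factors were 0.81 to 0.92 in WT and 1.09 to 1.23 in Hom livers, and scaling by library size alone moved the median over all genes from −0.0018 to 0.45 on the log2 scale. Of 13805 genes tested, 21.5% were higher and 20.1% lower in Hom livers with TMM scaling (41.7% in either direction). The shares were 47.6% and 4.65% (52.3% in either direction) with library size alone, and 19.2% and 18.1% (37.3%) without Hom replicate 1. After a correction for gene length, 2296 of the 13805 genes were higher and 4327 lower. With any 1 liver left out, 1986 to 3057 genes were higher and 1767 to 2750 lower, of 14014 to 14230 tested. Directions below are relative to the TMM scaling, and a direction that turns under library size alone is named with its value.

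Promoter sequences are shown first, because TEAD proteins bind the letters GGAATG, which read as CATTCC on the other strand, and most of these genes are described as YAP and TEAD targets. A RefSeq promoter window, from 250 bases before to 50 bases after the gene start (GRCm38.p6), was at hand for 8 of the 10 genes: Yap1, Wwtr1, Lats2, Amotl2, Ajuba, Ccn1, Ankrd1 and Axl. All 8 genes held the motif on one strand or the other, compared with 16.6% of 27025 genes with a window and 14.7% of 11006 tested genes. By windows it was 9 of 10, compared with 14.7% of 32851 windows of all genes and 12.5% of 14032 windows of tested genes. Ankrd1 and Ajuba held it at 2 places. Among the other genes of a YAP/TAZ target signature it was found in 2 of 10 genes, and among the other pathway genes in 10 of 38. The windows of genes higher in Hom livers held it in 14.1% of cases and those of genes lower in 12.3%. A match is a description of letters and does not show a bound site. The 250 bases before the start are given for the 3 genes with the largest increases that have a window (Ankrd1, Ajuba and Ccn1), on the minus strand at chr19:36119845-36120094, chr14:54577662-54577911 and chr3:145649986-145650235. Capitals mark the motif on either strand, and each sequence reads 5′ to 3′ toward the gene start.
Ankrd1: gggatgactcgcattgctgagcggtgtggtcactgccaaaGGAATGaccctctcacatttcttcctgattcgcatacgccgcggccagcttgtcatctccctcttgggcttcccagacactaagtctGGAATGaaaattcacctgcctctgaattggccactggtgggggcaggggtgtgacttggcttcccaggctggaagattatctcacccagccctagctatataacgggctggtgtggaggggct
Ajuba: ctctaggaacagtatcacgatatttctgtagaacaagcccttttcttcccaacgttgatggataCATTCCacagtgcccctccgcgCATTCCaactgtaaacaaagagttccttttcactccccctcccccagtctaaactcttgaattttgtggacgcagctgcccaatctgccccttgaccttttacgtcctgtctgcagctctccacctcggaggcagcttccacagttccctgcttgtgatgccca
Ccn1: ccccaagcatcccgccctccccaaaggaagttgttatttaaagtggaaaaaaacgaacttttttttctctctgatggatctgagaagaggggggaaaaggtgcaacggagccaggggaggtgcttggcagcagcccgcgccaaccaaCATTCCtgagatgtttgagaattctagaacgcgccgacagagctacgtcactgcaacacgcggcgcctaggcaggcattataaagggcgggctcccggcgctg

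For the other genes the motif is shown with 12 bases on each side, since only its presence and place are compared. The motif began 141 bases before the start in Yap1 (chr9:8004720-8004749, minus strand), 136 or 170 bases before it in Wwtr1, which has 2 windows that share the site (chr3:57576029-57576058, minus strand), 233 bases before it in Axl (chr7:25788949-25788978, minus strand) and 65 bases before it in Amotl2 (chr9:102717727-102717756, plus strand). In Lats2 (chr14:57746102-57746131, minus strand) it lay just after the start, from base 5 to base 10, and a second Lats2 window held none.
Yap1: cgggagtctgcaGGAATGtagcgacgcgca
Wwtr1: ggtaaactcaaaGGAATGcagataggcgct
Axl: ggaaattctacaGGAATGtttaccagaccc
Amotl2: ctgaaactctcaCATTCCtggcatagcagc
Lats2: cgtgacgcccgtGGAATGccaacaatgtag

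Between Hom and WT livers the 10 genes did not move together. Ankrd1, Ajuba, Ccn1, Axl, Tead1 and Wwtr1 were higher in Hom livers, Amotl2 was lower, and Yap1 was lower with TMM scaling but slightly above WT with library size alone (log2 fold change 0.19, not past the threshold). Lats2 and Ccn2 did not pass the test. Thus 6 of 10 were called higher and 2 lower, against 21.5% and 20.1% of all tested genes (edgeR's quasi-likelihood test, Benjamini-Hochberg adjusted p under 0.05). With a log2 fold change of at least 1 required, 4 were higher and 0 lower, against 13.2% and 4.17% of all genes (17.4% in either direction). The 2 groups did not overlap for 8 of the 10 genes, against 55.6% of all genes; 6 lay above (28.7% of all genes) and 2 below (27%). Without Hom replicate 1, 6 of the 10 were higher and 1 lower, against 19.2% and 18.1% of all genes. Without WT replicate 2, 4 were higher and 1 lower, against 2070 and 1959 of 14230 genes. Their median was 0.73 on the log2 scale, against −0.0018 for all genes. Ankrd1 had few counts in WT livers and passed the filter on low counts through its Hom livers, so it had to differ; of the other 9 genes 5 were higher and 2 lower. In whole liver, fewer cells of a type and less RNA per cell cannot be told apart.

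**Figure D1:**
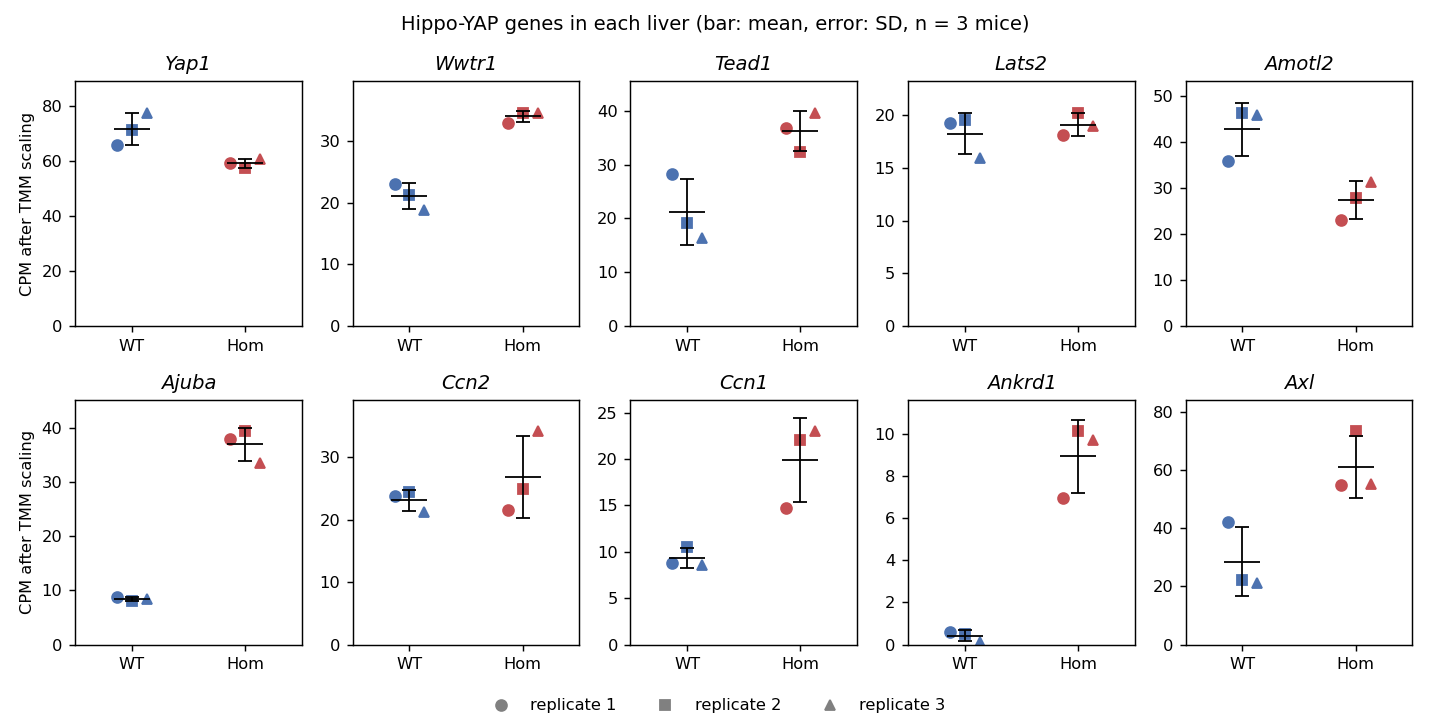
Level of each of the 10 Hippo-YAP genes in each liver, in CPM (counts relative to the scaled library total) after TMM scaling; each panel has its own axis from 0, symbols are mice, bars are means and error bars SD (n = 3 mice per group). Ajuba and Ankrd1 show the widest separation of WT and Hom livers, and the groups overlap for Lats2 and Ccn2.

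The coactivators differed in direction with TMM scaling. YAP is the main coactivator of the pathway, and its gene Yap1 (chromosome 9, 7931999 to 8004596 on the minus strand in GRCm38) was the most abundant of the 10 in WT livers. Its level in CPM, the count relative to the scaled library total, was 65.8, 71.4 and 77.5 CPM in the WT livers, in replicate order, and 59.4, 57.6 and 60.8 in the Hom livers. Every Hom liver was under every WT liver, by a narrow margin between WT replicate 1 and Hom replicate 3. The log2 difference was −0.27 ± 0.084 SE (edgeR adjusted p = 0.0369), or 1.21-fold lower. Before scaling, the Yap1 counts were higher in Hom livers, at 1273, 1396 and 1411 against 1179, 1113 and 1262. Without Hom replicate 1 the adjusted p from the edgeR test was 0.0703, and each of 4 other single livers left out also ended the call.

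TAZ, the close relative of YAP, is encoded by Wwtr1 (chromosome 3, 57455649 to 57575910, minus strand). Wwtr1 stood at 23.1, 21.3 and 18.9 CPM in WT livers and at 32.9, 34.6 and 34.5 CPM in Hom livers. The Hom livers lay close together and well above all WT livers. The log2 difference was 0.69 ± 0.094 SE (edgeR adjusted p = 0.00203), a 1.61-fold increase, which remained past the threshold under every alternative tried, with values from 0.45 to 1.14. None of the 6 Wwtr1 counts was a whole number, as RSEM gives where it shares reads out between transcripts of several genes.

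TEAD1 is one of the 4 DNA-binding proteins through which YAP and TAZ reach their targets. Tead1 (chromosome 7, 112679318 to 112906807, plus strand) was at 28.1, 19.2 and 16.3 CPM in WT livers and at 36.8, 32.3 and 39.6 CPM in Hom livers. WT replicate 1 was highest of its group and still under the lowest Hom liver. None of the 6 Tead1 counts was a whole number either. Tead1 was 1.70-fold higher (0.77 ± 0.20 SE on the log2 scale, edgeR adjusted p = 0.0209). The call was lost without WT replicate 2 (edgeR adjusted p = 0.0789) or without Hom replicate 3 (adjusted p = 0.0715). Of the other family members, Tead3 was at 17.8 CPM in WT and 15.2 CPM in Hom livers, with a log2 fold change of −0.22 that turned to 0.24 under library size alone, and neither passed the threshold. Tead2 and Tead4 were rare, with means of 1.26 and 0.511 CPM in WT livers and 2.36 and 0.668 CPM in Hom livers, and neither passed the test (edgeR adjusted p = 0.0675 and 0.490).

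LATS2 is a kinase that phosphorylates YAP and TAZ, and its gene is also counted among their targets, which makes it part of a feedback loop. Lats2 (chromosome 14, 57689662 to 57758388, minus strand) was at 19.2, 19.6 and 16.0 CPM in WT livers and at 18.1, 20.2 and 19.0 CPM in Hom livers, and the groups overlapped. The log2 fold change was 0.066, with a 95% interval from −0.19 to 0.33 (edgeR adjusted p = 0.655). This interval holds changes of up to 1.25-fold higher, so a small change was not detectable. Under library size alone the log2 fold change was 0.52 and passed the test (adjusted p = 0.0215). Lats1, the related kinase, had a log2 fold change of −0.25 and did not pass the test (edgeR adjusted p = 0.0600); it was 0.21 under library size alone.

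The scaffolds moved in opposite directions. AJUBA is a LIM-domain protein that binds LATS kinases and restrains them, and Ajuba (chromosome 14, 54567472 to 54577558, minus strand) had the largest change of the 10 after Ankrd1 with TMM scaling. It was at 8.82, 7.95 and 8.36 CPM in WT livers and at 37.9, 39.3 and 33.5 CPM in Hom livers. The lowest Hom liver was far above the highest WT liver, and the spread in each group was small. Ajuba was 4.40-fold higher (2.14 ± 0.10 SE on the log2 scale, edgeR adjusted p = 1.07e-04), with values from 1.91 to 2.59 under all alternatives. Its counts, like those of Wwtr1 and Tead1, were not whole numbers in any liver, and those of Lats2 and Axl were whole in only 4 of 6.

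AMOTL2 is an angiomotin family protein that holds YAP at cell junctions and whose gene is also a YAP target. Amotl2 (chromosome 9, 102716672 to 102733418, plus strand) was at 36.0, 46.4 and 46.0 CPM in WT livers and at 23.1, 28.0 and 31.3 CPM in Hom livers. All Hom livers were under all WT livers, and replicate 1 was the lowest in both groups. Amotl2 was 1.56-fold lower (−0.64 ± 0.15 SE on the log2 scale, edgeR adjusted p = 0.0133). Under library size alone it stayed below 0 at −0.17 without passing the test, and the raw counts were 645, 723 and 748 in WT and 495, 678 and 726 in Hom livers. Of its relatives, Amot rose 2.30-fold, from 6.86 to 15.8 CPM (edgeR adjusted p = 7.91e-04), and Amotl1 was at 11.5 and 13.0 CPM (adjusted p = 0.315).

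Among the target genes, Ankrd1 showed the largest change of the 10. ANKRD1 is an ankyrin repeat protein of muscle and of stressed cells and is a standard readout of YAP activity. Ankrd1 (chromosome 19, 36111961 to 36120099, minus strand) had rounded counts of 11, 8 and 2 in WT livers and of 149, 245 and 225 in Hom livers. WT livers held 21 counts in all, and no Hom liver held fewer than 149. After scaling this was 0.614, 0.513 and 0.123 CPM against 6.95, 10.1 and 9.70 CPM. The fitted log2 difference was 4.39 ± 0.43 SE (edgeR adjusted p = 7.28e-04), or 20.9-fold, with a 95% interval of 10.3-fold to 42.4-fold. Because Ankrd1 passed the filter on low counts through its Hom livers, it had to differ, and this p-value is not separate evidence of a difference.

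CCN1 and CCN2 are secreted matrix-associated proteins and the best-known targets of YAP. Ccn1 (chromosome 3, 145646976 to 145649981, minus strand) was at 8.82, 10.5 and 8.60 CPM in WT livers and at 14.7, 22.01 and 23.0 CPM in Hom livers. Hom replicate 1 was lower than the other 2 but above all WT livers. Ccn1 was 2.14-fold higher (1.10 ± 0.19 SE on the log2 scale, edgeR adjusted p = 0.00494), and it stayed past the threshold in every fit with 1 liver left out, with values from 0.98 to 1.27.

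Ccn2, the gene of connective tissue growth factor (chromosome 10, 24595442 to 24598683, plus strand), did not pass the test. It was at 23.8, 24.4 and 21.2 CPM in WT livers and at 21.5, 24.9 and 34.1 CPM in Hom livers. Hom replicate 1 lay within the WT range, Hom replicate 2 just above it, and Hom replicate 3 stood apart. The log2 fold change was 0.22, with a 95% interval from −0.19 to 0.62, which holds changes of up to 1.54-fold (edgeR adjusted p = 0.347). With library size alone Ccn2 passed the test, with a log2 fold change of 0.68 (adjusted p = 0.0267). Without Hom replicate 3 the TMM value was 0.0069.

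AXL is the receptor tyrosine kinase for GAS6, found on macrophages, endothelial cells and stellate cells. Axl (chromosome 7, 25757273 to 25788705, minus strand) was at 42.3, 22.1 and 21.1 CPM in WT livers and at 54.8, 73.3 and 55.0 CPM in Hom livers. WT replicate 1 lay between the other WT livers and the Hom livers, and no Hom liver was as low. Axl was 2.14-fold higher (1.10 ± 0.28 SE on the log2 scale, edgeR adjusted p = 0.0199). The call was lost without WT replicate 2 or 3 or Hom replicate 2 (edgeR adjusted p = 0.0724, 0.0548 and 0.0649). The summed level of 14 macrophage marker genes was also highest in WT replicate 1, at 630 CPM, against 277 and 258 in the other WT livers and 355, 476 and 422 in Hom livers. The part of macrophages in the Axl values was not tested.

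**Figure D2:**
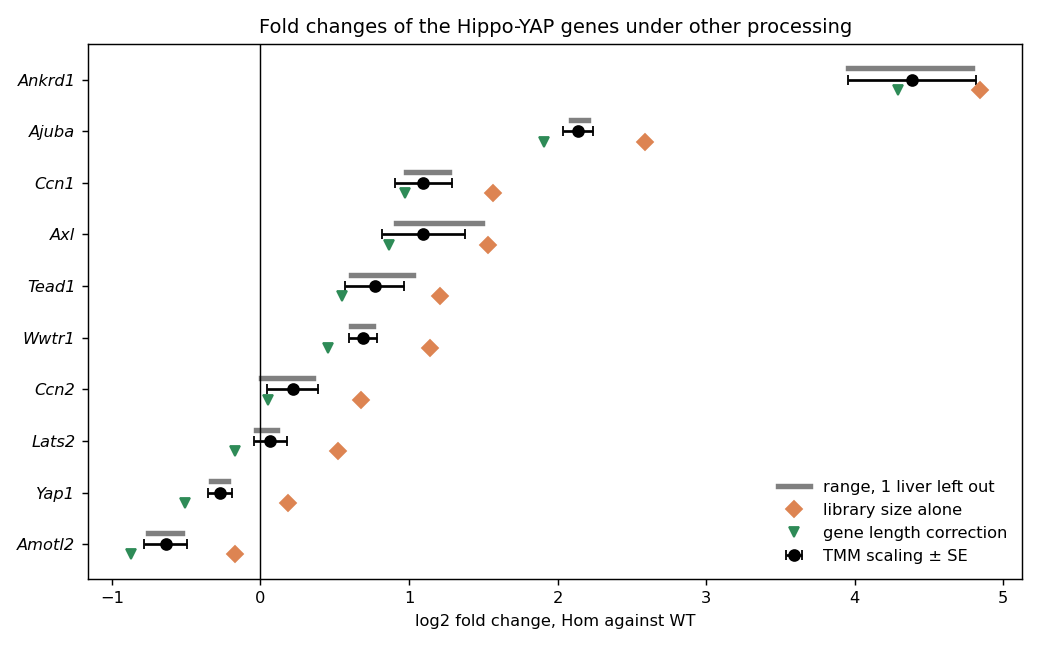
Log2 fold change of each of the 10 genes, Hom against WT, with TMM scaling (black points, error bars SE), with library size alone (orange diamonds), after a correction for gene length (green triangles), and the range over 6 fits that each left out 1 liver (grey bars). Ankrd1, Ajuba, Ccn1, Axl, Tead1 and Wwtr1 lie above 0 in all of these, Amotl2 lies below 0 in all, and Yap1 and Lats2 lie on both sides.

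Levels were compared between genes within each group by the authors' TPM values, which are divided by gene length. In WT livers Yap1 ranked first at 25.1 ± 1.52 TPM (SD, n = 3 mice) and did not overlap with the next gene, Amotl2, at 14.7 ± 0.479. After Amotl2 came Ccn2 (14.2 ± 2.18), Axl (10.5 ± 5.88), Ccn1 (6.77 ± 0.763), Wwtr1 (6.54 ± 1.36) and Lats2 (5.35 ± 0.954), each overlapping with the one before it. Ajuba (3.51 ± 0.571) lay below Lats2 without overlap and overlapped with Tead1 (3.19 ± 1.31), and Ankrd1 was last, without overlap, at 0.360 ± 0.242. In Hom livers every gene overlapped with its neighbour. Axl (33.7 ± 7.78 TPM), Yap1 (32.0 ± 2.10) and Ccn2 (25.4 ± 7.11) were at the top, Ajuba (23.7 ± 2.60) was 4th and Ankrd1 (11.6 ± 2.95) was 8th, above Lats2 (8.64 ± 1.36) and Tead1 (8.18 ± 0.830). TPM values are not corrected for library composition, so their levels are compared here only within a group.

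Ratios of 2 genes within a liver do not depend on how libraries are scaled, and 5 such ratios of TPM values were computed. The Wwtr1 to Yap1 ratio was 0.307, 0.261 and 0.213 in WT livers and 0.485, 0.527 and 0.498 in Hom livers, with means of 0.260 ± 0.0471 and 0.503 ± 0.0213 (SD, n = 3 mice). The Ccn1 to Ccn2 ratio was 0.440, 0.513 and 0.483 in WT and 0.815, 1.05 and 0.800 in Hom livers. All Hom livers were above all WT livers in both ratios. The Ajuba to Amotl2 ratio was 0.239 ± 0.0473 in WT and 1.65 ± 0.343 in Hom livers. The Lats2 to Lats1 ratio was 0.731 ± 0.0499 and 0.916 ± 0.0856. The Tead4 to Tead1 ratio overlapped between groups. For the 4 ratios without overlap the exact two-sided permutation test gave p = 0.1, the smallest that 3 mice against 3 allow (Benjamini-Hochberg adjusted p = 0.125 over the 5 ratios), so none could pass the threshold.

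**Figure D3:**
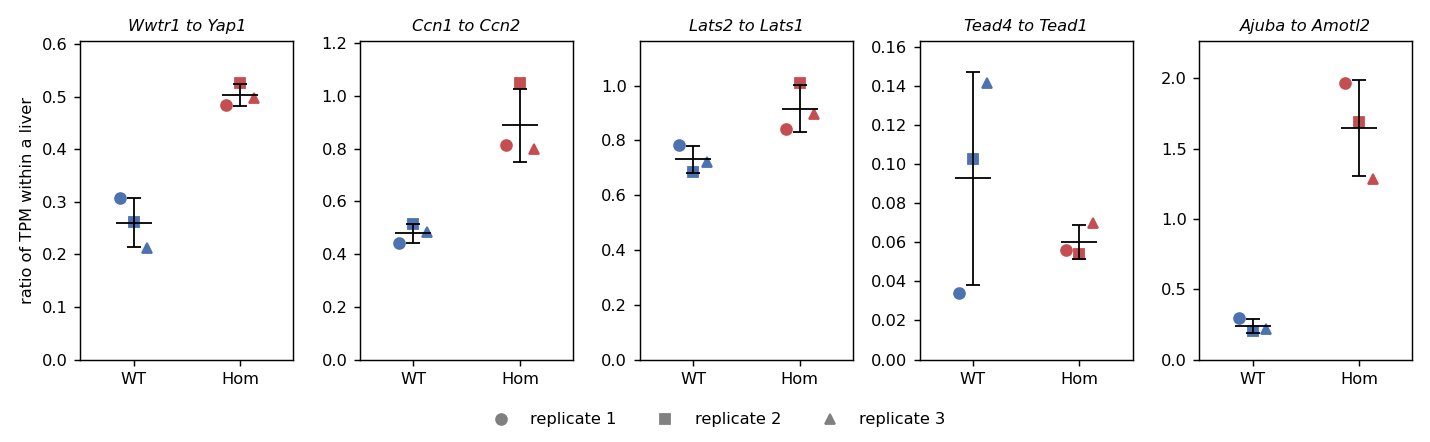
Ratio of TPM values of 2 genes within each liver, for WT and Hom mice; each panel has its own axis from 0, symbols are mice, bars are means and error bars SD (n = 3 mice per group). The 2 groups do not overlap for Wwtr1 to Yap1, Ccn1 to Ccn2, Lats2 to Lats1 and Ajuba to Amotl2, and they overlap for Tead4 to Tead1.

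Outside the 10 genes, most of the core kinase cascade did not pass the test with TMM scaling. Of 17 tested cascade kinases and adaptors, 2 were higher (11.8%, against 21.5% of all genes), Stk3 (MST2) and Map4k4, and 1 was lower (5.88%, against 20.1%), Tnik. With library size alone 13 of the 17 were higher (76.5%, against 47.6% of all genes) and 0 lower (against 4.65%). After the length correction 1 was higher and 6 lower (5.88% and 35.3%), against 2296 and 4327 of all 13805 genes. The number higher was 4 without Hom replicate 1 (23.5%, against 19.2% of all genes). It was 1 without WT replicate 2 or 3 or Hom replicate 2 or 3, fits in which 1986 to 2438 of all genes were higher. The number lower was 2 without WT replicate 3 (11.8%, against 2217 of 14142 genes) and 0 without any other single liver. Stk3 was at 9.02 CPM in WT and 12.1 CPM in Hom livers (0.42 on the log2 scale, edgeR adjusted p = 0.0481), a call that DESeq2 and several other alternatives did not keep. Map4k4, a kinase that can phosphorylate LATS, rose from 15.4 to 29.8 CPM (0.95 on the log2 scale, edgeR adjusted p = 0.00594). The log2 fold changes of Stk4 (MST1), the adaptors Sav1, Mob1a and Mob1b, and the tumour suppressor Nf2 (merlin) were −0.0044, 0.19, 0.090, −0.17 and −0.18, and none passed the test. Under library size alone they were 0.45, 0.66, 0.55, 0.29 and 0.28, and all but that of Mob1b passed (edgeR adjusted p = 0.0235 for Stk4, 0.0136 for Sav1, 0.00902 for Mob1a and 0.0496 for Nf2).

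Upstream regulators at cell junctions and the membrane included several that passed. Of 20 tested, 9 were higher (45.0%, against 21.5% of all genes) and 1, Pard3, was lower (5.00%, against 20.1%), with a log2 fold change of −0.33 that turned to 0.13 under library size alone. With library size alone 16 of the 20 were higher (80%, against 47.6% of all genes) and 0 lower (against 4.65%). After the length correction 6 were higher and 3 lower (30% and 15%), against 2296 and 4327 of all 13805 genes. The number higher was 6 without Hom replicate 3 (30%, against 1986 of 14020 genes). The number lower was 2 without WT replicate 1 (10%, against 2750 of 14208 genes). It was 0 without WT replicate 2 or 3 or Hom replicate 1 or 2. The higher ones included Ptpn14, Frmd6, Fat1, Tjp1, Patj, Dlg5, Mark2 and Ctnna1. Ptpn14, a phosphatase that binds YAP, rose from 3.70 to 10.7 CPM (1.53 ± 0.19 SE on the log2 scale, edgeR adjusted p = 0.00151). Frmd6, a FERM-domain activator of the cascade, rose from 6.04 to 12.6 CPM (1.06 ± 0.12 SE on the log2 scale, edgeR adjusted p = 0.00113). Fat1, a giant protocadherin, was at 42.5 and 84.9 CPM (1.00 on the log2 scale, edgeR adjusted p = 0.00149). Of 4 further scaffolds, Amot, Wtip and Limd1 were higher (75%, against 21.5% of all genes), and Wtip and Limd1 had log2 fold changes of 0.77 and 0.30.

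Of the 5 further TEAD and VGLL genes tested, 1 was lower (20%, against 20.1% of all genes) and 0 were higher (against 21.5%). Vgll4, which competes with YAP for TEAD binding, was at 30.1 CPM in WT and 20.4 CPM in Hom livers (−0.56 ± 0.13 SE on the log2 scale, edgeR adjusted p = 0.0153), with −0.091 under library size alone. Its call was lost without WT replicate 2 or Hom replicate 3. Vgll3 was at 1.16 and 2.31 CPM and did not pass (adjusted p = 0.0735). In all, 46 other pathway genes were tested and 14 were higher (30.4%, against 21.5% of all genes) and 3 lower (6.52%, against 20.1%), with a median log2 fold change of 0.25 against −0.0018 for all genes. These counts rested on the processing. With library size alone 35 were higher (76.1%, against 47.6% of all genes) and 0 lower (against 4.65%). After a correction for gene length 9 were higher and 11 lower (19.6% and 23.9%), against 2296 and 4327 of all 13805 genes. With all else kept, 8 were higher without Hom replicate 3 (17.4%, against 1986 of 14020 genes). The 3 lower became 0 without WT replicate 2 and 1 without Hom replicate 1, 2 or 3. Over all genes, 1959 were lower without WT replicate 2, and 1767 to 2546 without Hom replicate 1, 2 or 3.

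A signature of 22 genes in common use as a readout of YAP and TAZ holds 6 of the 10 genes above (Ccn1, Ccn2, Ankrd1, Amotl2, Lats2 and Axl) and 16 others, of which 15 were tested. Of these 15, 9 were higher (60.0%, against 21.5% of all genes) and 1 was lower (6.67%, against 20.1%), with a median log2 fold change of 0.97. Fjx1, 1 of the 9, had counts of 2, 1 and 8 in WT livers and of 18, 30 and 29 in Hom livers, so it passed the filter through its Hom livers and had to differ; when each liver had to hold 10 counts or more, 8 of 14 were higher and 1 lower. The largest increase was that of Tgfb2, a TGF-beta ligand, which had counts of 22, 17 and 25 in WT livers and 230, 339 and 292 in Hom livers (3.27 ± 0.20 SE on the log2 scale, edgeR adjusted p = 1.93e-04). Myof (myoferlin, a membrane repair protein), Fjx1 and Ccdc80 (a secreted matrix protein) followed with log2 fold changes of 2.43, 2.29 and 2.26, and Gadd45a, a growth arrest and stress gene, with 1.57. Ptpn14, which belongs to both lists, Arhgef17, Rbms3 and Crim1 were also higher. F3 (tissue factor) had counts of 27, 53 and 107 in WT livers and of 148, 208 and 172 in Hom livers, and did not pass (adjusted p = 0.120). Nt5e, Asap1, Nuak2 and Dock5 had log2 fold changes between −0.095 and 0.051 and did not pass; that of Dock5, −0.095, turned to 0.35 under library size alone and passed there (edgeR adjusted p = 0.0386). The exception was Igfbp3, which binds insulin-like growth factors and fell from 31.4 to 13.9 CPM (−1.18 ± 0.27 SE on the log2 scale, edgeR adjusted p = 0.0141); under library size alone it was −0.74 and did not pass. Without Hom replicate 1, 9 of the 15 were higher and 1 lower, against 19.2% and 18.1% of all genes. Without Hom replicate 3, 7 were higher and 0 lower, against 1986 and 1767 of 14020 genes.

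**Figure D4:**
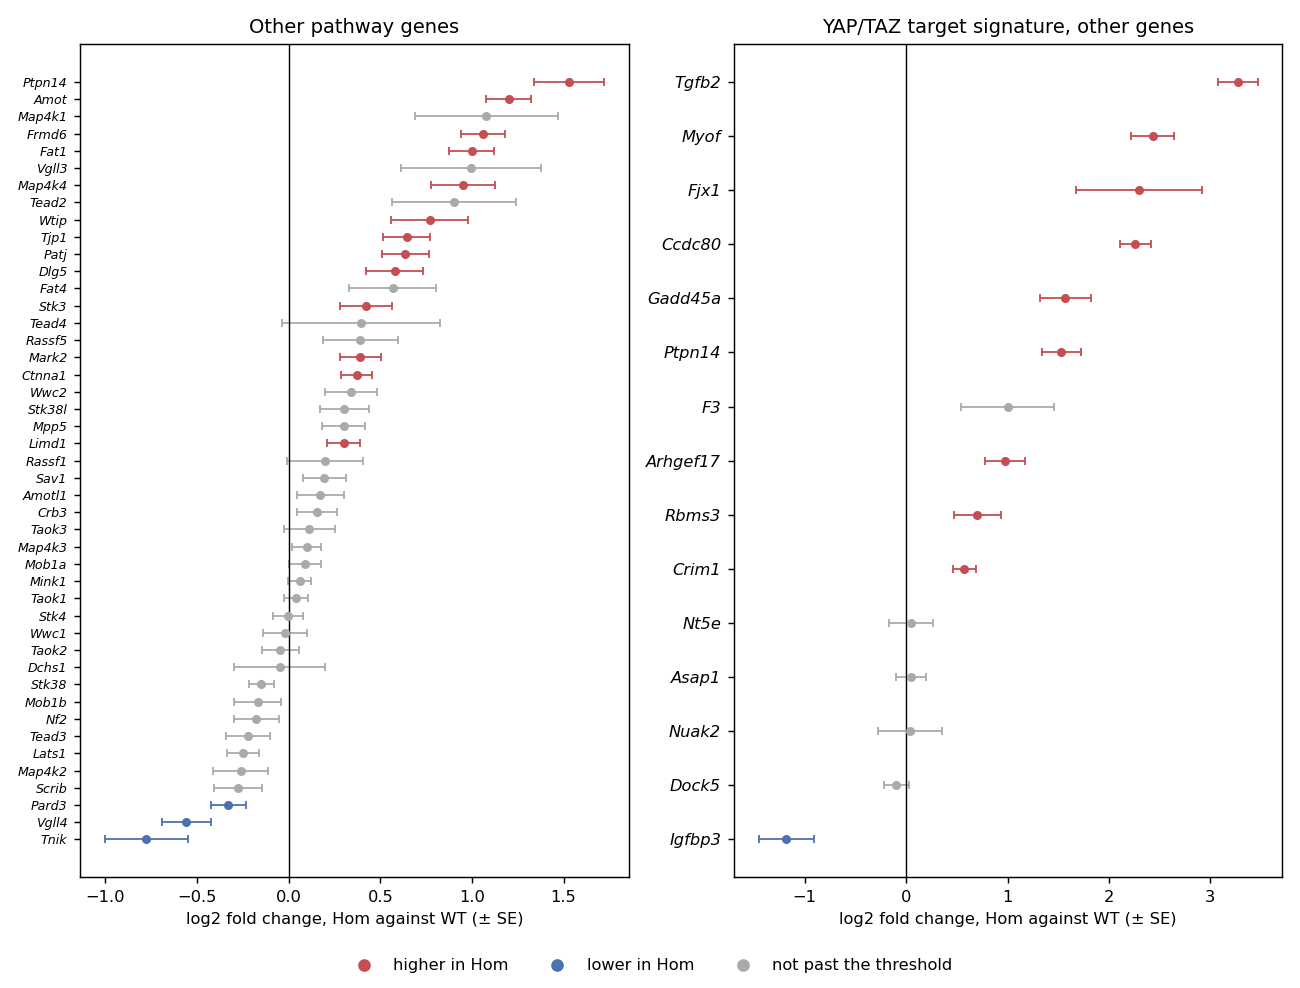
Log2 fold change (Hom against WT, TMM scaling, error bars SE) of the other pathway genes tested, all but 1 of the 46 (left) and of the 15 other genes of the YAP/TAZ target signature tested (right), coloured by whether they passed the edgeR test. Ptpn14, Amot and Frmd6 are the pathway genes past the threshold that rose by more than 1 on the log2 scale, and Tgfb2, Myof, Fjx1 and Ccdc80 stand highest among the signature genes.

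The genes whose pattern over the 6 livers was most like that of Ccn1, by the root mean square distance of log2 CPM centred on the WT mean among 9955 genes, were Fzd6, Jag1 and Cryab (distances 0.10, 0.11 and 0.11). Fzd6 (a Wnt receptor), Jag1 (a Notch ligand) and Cryab (a small heat shock protein) had log2 fold changes of 1.11, 1.14 and 1.22. Map2k6 and Tshz2 were nearest to Ccn2 (distances 0.078 and 0.095). Fbxw8, Pknox1 and Ociad1 were nearest to Yap1 (distances 0.016, 0.026 and 0.029).

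Marker genes of several cell types differed with genotype, over 9 lists. Counts with TMM scaling and all 6 livers are to be read against 21.5% of all genes higher and 20.1% lower. Of 24 tested hepatocyte markers 13 were lower and 0 higher (summed level 195450 to 232098 CPM in WT and 102639 to 151375 CPM in Hom livers), and the tissue held albumin message throughout. Of 13 cholangiocyte markers, including Krt19 and Epcam, 11 were higher (60.8 to 84.1 CPM against 673 to 910). Of 19 stellate and portal fibroblast markers 10 were higher and 2 lower (460 to 544 CPM against 899 to 1006). Of 14 endothelial markers 1 was higher and 7 lower (331 to 445 CPM against 268 to 277), and of 14 macrophage markers 4 were higher and 3 lower (258 to 630 CPM against 355 to 476). Of 6 tested mesothelial markers 2 were higher (12.7 to 169 CPM against 16.2 to 75.0), with the defining gene Msln not past the test. Of 4 tested smooth muscle markers 3 were higher (12.7 to 18.8 CPM against 26.8 to 36.6), of 6 tested lymphocyte markers 1 was higher (5.97 to 8.43 CPM against 7.19 to 12.7), and of 13 proliferation genes 12 were higher (7.50 to 20.5 CPM against 33.9 to 73.4). Several of these counts rested on the scaling, on the filter or on 1 liver. A marker scarce in WT livers could pass the filter through its Hom livers, and then it had to differ. After genes under 10 counts in any liver were dropped, 9 of 10 cholangiocyte markers and 3 of 4 proliferation genes were higher. The numbers were 1 of 3 mesothelial, 2 of 3 smooth muscle, 3 of 12 macrophage and 0 of 1 lymphocyte markers. Of all 12223 genes left, 2558 were higher. With library size alone, where 47.6% of all genes were higher and 4.65% lower, 6 hepatocyte markers were lower and 1 higher. In that fit 4 endothelial markers were higher and 4 lower, and 7 macrophage markers were higher and 2 lower. Without Hom replicate 3 the number of hepatocyte markers lower was 6, against 1767 of 14020 genes. In the fits with 1 liver left out, 1986 to 3057 of all genes were higher and 1767 to 2750 lower. The number of proliferation genes higher was 4 without Hom replicate 2, 6 without Hom replicate 3 and 6 with the replicate block, and only 4 of the 13 had at least 10 counts in every liver. The number of macrophage markers higher was 7 without WT replicate 1 and 2 without WT replicate 2 or Hom replicate 2 or 3, and the number lower was 1 without Hom replicate 3. Smooth muscle markers higher numbered 1 without WT replicate 2 or Hom replicate 3, lymphocyte markers 2 without WT replicate 1 or Hom replicate 1 and 0 without any other single liver, and 2 mesothelial markers were lower without Hom replicate 1. The part of these cell types in the levels of Ajuba, Ankrd1, Ccn1, Axl, Tead1, Wwtr1 and the other genes above was not tested.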

How the data were processed

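The authors deposited 1 table with estimated counts (expected counts) of 17975 genes, not scaled between livers, and FPKM and TPM values the authors made from them. The submitters' processing notes name HISAT2 2.0.4, Bowtie2 2.2.5, RSEM 1.2.12 and the build mm9; the annotation and strandedness are not given in the sources used here. The deposited group means were left out, because for all 17975 genes the mean named for controls equals the mean of the 3 Hom livers.

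Rounded counts entered edgeR 4.0.16 (R 4.3.3). After filterByExpr 13805 genes were left; libraries were scaled by TMM. The 3 Hom and 3 WT livers were compared by the quasi-likelihood test (glmQLFit, glmQLFTest), p-values were adjusted by Benjamini-Hochberg over all tested genes, and the threshold was 0.05. The standard error is the absolute log2 fold change divided by the square root of F. The p-values compare the group difference with the variation between mice, which was estimated with information shared over genes. Levels per gene length are the deposited TPM values, and the deposited FPKM values gave the gene length used in 1 alternative (94.8% of tested genes). The procedure was tested on simulated data.

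The members, gene lists, ratios and tests were chosen with earlier results of these data known. Named genes were the 10 members, the core pathway genes, pathway and signature genes past the threshold with a log2 fold change of at least 1, at least 1 CPM and no overlap, the 3 nearest genes of Ccn1, Ccn2 and Yap1 (mean of at least 5 CPM, pseudocount 0.1), Nek7, Y-linked genes and defining markers; the other pathway and signature genes are named to complete their lists. Of the genes these rules give, 2 are not reported here by name. Gene positions are from GENCODE M21 (GRCm38) and promoters from RefSeq (GRCm38.p6); no coordinate was taken from the authors' build. The alternatives were DESeq2 1.42.0, 2 scalings, 2 filters, a replicate block, a gene length correction, a fold minimum and each liver left out.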

Additional observations from a re-analysis of the deposited data

How the results depend on the processing

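Of the 10 genes, 6 were higher under DESeq2, upper-quartile factors, no filter, the replicate block and the gene length correction; 8 were higher with library size alone, 5 with at least 10 counts in every liver, where Ankrd1 was not tested, and 4 to 6 with 1 liver left out. The number lower was 2, and it was 0 with library size alone or with a log2 fold change of at least 1, 1 under the upper-quartile scaling, the minimum of 10 counts or the replicate block, and 1 to 2 with 1 liver left out. Among other pathway genes, the 14 higher became 35 with library size alone, 9 after the length correction and 3 with the fold minimum. They became 8 to 15 with 1 liver left out. The 3 lower became 0, 11, 0 and 0 to 3 in the same order. Over all genes 47.6% were higher and 4.65% lower with library size alone, and 13.2% and 4.17% with the fold minimum. After the length correction 2296 of 13805 genes were higher and 4327 lower. With 1 liver left out 1986 to 3057 genes were higher and 1767 to 2750 lower. In the target signature, members included, 12 of 21 were higher (57.1%, against 21.5% of all genes) and 2 lower (9.52%, against 20.1%). Ankrd1 and Fjx1, among the 12, passed the filter through their Hom livers and had to differ. With at least 10 counts in every liver 10 of 19 were higher and 2 lower, against 2558 and 2367 of 12223 genes. With 1 liver left out 9 to 12 were higher and 1 to 2 lower. The number lower was 0 with library size alone and 1 with the fold minimum.

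Log2 fold changes that changed sign were those of Yap1 (0.19), Lats1 (0.21), Mob1b (0.29), Nf2 (0.28), Tead3 (0.24), Stk4 (0.45), Pard3 (0.13), Dock5 (0.35), Map4k2 (0.19), Taok2 (0.41), Stk38 (0.31), Wwc1 (0.43), Dchs1 (0.38) and Scrib (0.17) with library size alone; among the 31 genes followed through all alternatives, Lats2 (−0.17), Mob1a (−0.14) and Amotl1 (−0.062) after the length correction; Stk4 with upper-quartile factors (0.086) and with at least 10 counts (0.042); and, with 1 liver left out, Lats2 (−0.027 without WT replicate 3; range −0.027 to 0.11) and Stk4 (0.027, 0.025 and 0.011 without WT replicate 1, Hom replicate 1 or Hom replicate 3; range −0.049 to 0.027). The median of all genes is 0.45 with library size alone and −0.17 after the length correction; the cause was not tested. With the replicate block the adjusted p of Yap1 was 0.0670; same-numbered livers are different mice and did not deviate together (mean correlation −0.071). Of 401 comparisons of these 31 genes, 341 kept direction and side of the threshold. Depth limits Ankrd1, Fjx1, Tead2, Tead4 and Vgll3.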
